A study of Danio rerio with 15 samples.

Results

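The aryl hydrocarbon receptor (AhR) genes of zebrafish, their dimer partners and their repressors were examined as a set of 10 genes, among 36351 genes in the authors' deposited table. The set was chosen by gene symbol, with the entry of highest base mean kept for each symbol, and each symbol had 1 entry. It holds the receptor genes ahr2, ahr1a and ahr1b, the partner genes arnt and arnt2, the repressor genes ahrra, ahrrb and tiparp, and the forkhead genes foxq1a and foxq1b. Whole wild-type AB strain zebrafish were exposed through the water from 96 to 100 hours post fertilization, for 4 hours, and their messenger RNA was then sequenced. Of the 3 groups, the control received dimethyl sulfoxide (DMSO, 0.01% v/v) and the others received tris(4-chlorophenyl)methane (TCPM) or tris(4-chlorophenyl)methanol (TCPMOH), each at 50 nM. Each group has 5 libraries, each from a pool of 8 to 10 embryos. The comparison described here is between the 10 libraries of the DMSO and TCPMOH groups. Whether the TCPM libraries also entered the authors' fit, and so the deposited means and errors, is not known here. The TCPM libraries were not analysed here. The pools came from 3 experimental replicates and 20 breeding pairs, and no source used here assigns the pools to replicates. With 5 pools per group from 3 replicates, some pools of each group must share a replicate and are not fully independent. The p-values reflect only how the pools varied.

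AhR is a ligand-activated transcription factor of the bHLH-PAS family. It waits in the cytosol bound to HSP90 and co-chaperones, moves to the nucleus when a ligand such as dioxin binds, pairs with ARNT and activates genes such as cyp1a. Several of its targets turn the signal down, among them the AhR repressor and TIPARP, and in zebrafish larvae dioxin toxicity runs mainly through ahr2.

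The deposited values are a base mean, which is the mean of normalised counts, and a log2 fold change with its standard error (SE) for DMSO and TCPMOH. Whether DMSO or TCPMOH is the numerator of that fold change is not stated in its header. A negative value means a lower level with TCPMOH if the control is the reference, and a higher level with TCPMOH if the named order, DMSO before TCPMOH, is a ratio. The text below therefore gives the sign as deposited and which genes share a sign, and these relations are the same under both readings. A gene was called changed at a DESeq2 adjusted p under 0.05. Values per library were not used here, so the groups are described by fold changes and errors, and whether single pools overlapped could not be seen. The folds also appear shrunken toward 0, and the printed 95% intervals (fold change plus or minus its normal error) are on that scale. Depth per library is unknown here.

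The receptor gene ahr2 and the repressor gene tiparp changed, with the same sign and nearly the same size. In the authors' deposited table ahr2 stood at -0.36 (SE 0.0743; DESeq2 adjusted p = 0.000277) and tiparp at -0.35 (SE 0.0766; DESeq2 adjusted p = 0.000631), a difference of 1.28-fold for each. With the Wald statistics divided by their robust spread over all tested genes, ahr2 kept its call and tiparp lost it (adjusted p = 0.0603 from the DESeq2 statistics), which left 1 gene of the set called. Of the 10 genes, 8 had an adjusted p in the authors' deposited table, and 2 of these were called, both negative, with 0 positive. Over all 19257 tested genes, 2.68% were called in either direction, 1.92% negative and 0.758% positive. At an unadjusted p under 0.05 in the authors' deposited table, 5 of the 8 tested genes passed, beside 13.0% of all tested genes. The median log2 fold change of the 8 was -0.24, beside -0.0016 over all tested genes.

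**Figure D1:**
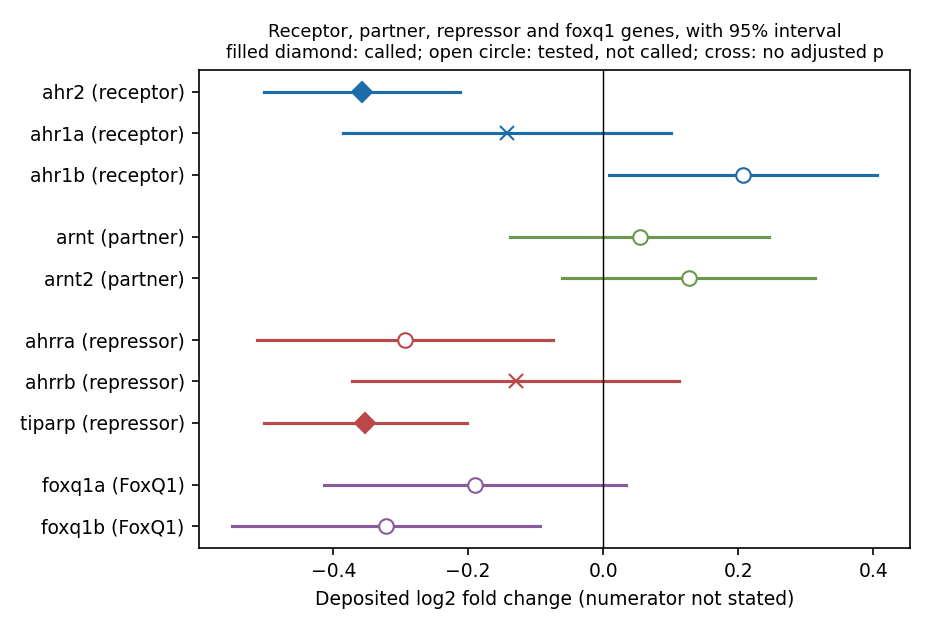
Deposited log2 fold change (horizontal axis) of the 10 genes, grouped by role, with bars for the 95% interval; filled diamonds were called, open circles were tested and not called, and crosses have no adjusted p. The 2 called genes, ahr2 and tiparp, sit at -0.36 and -0.35, while ahr1b, arnt and arnt2 lie on the positive side.

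The receptors split by sign, but only ahr2 was called. The main dioxin receptor gene of zebrafish, ahr2, had a base mean of 3874 and ranked 104 of 19257 tested genes by p-value in the authors' deposited table. Its interval ran from -0.50 to -0.21, and 0.774% of all tested genes had a fold change as low or lower. The gene ahr1b encodes another receptor that binds dioxin, with a base mean of 523. It stood at 0.21 (SE 0.101; DESeq2 adjusted p = 0.344) according to the authors' deposited table and was not called, with an interval from 0.01 to 0.41 and 3.58% of tested genes as high or higher. The intervals of ahr2 and ahr1b did not overlap, whereas the difference between the genes was not tested. The remaining receptor gene, ahr1a, whose protein binds dioxin poorly, stood at -0.14 (SE 0.124) at a base mean of 33.2 in the authors' deposited table, with an unadjusted p of 0.250 from the DESeq2 Wald test. It has no adjusted p, since the lowest base mean with one was 49.1. The interval of ahr1a, from -0.39 to 0.10, overlapped those of both other receptors.

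The called ahr2 and the uncalled ahr1b, whose deposited signs differ, are neighbours in the genome. In the authors' deposited table ahr2 spans chromosome 22 from 13046270 to 13165186 and ahr1b from 12976947 to 13043011, both on the minus strand, so that ahr1b lies downstream of ahr2 with 3258 bp between them. These are gene spans with exons and introns, printed as deposited, on a genome build that no source used here names. The next tested genes outward were mfsd6a at -0.06 (SE 0.0930), 45744 bp from ahr1b and chosen after its value was seen, and si:ch211-227m13.1 at -0.0050 (SE 0.124), 111506 bp from ahr2, and neither was called in the authors' deposited table. A gene model inside ahr2 on its strand, BX908726.1, chosen after its value was seen, had a base mean of 0.286 in the authors' deposited table. The receptor gene ahr1a lies apart, on chromosome 16 from 20009427 to 20038280.

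**Figure D2:**
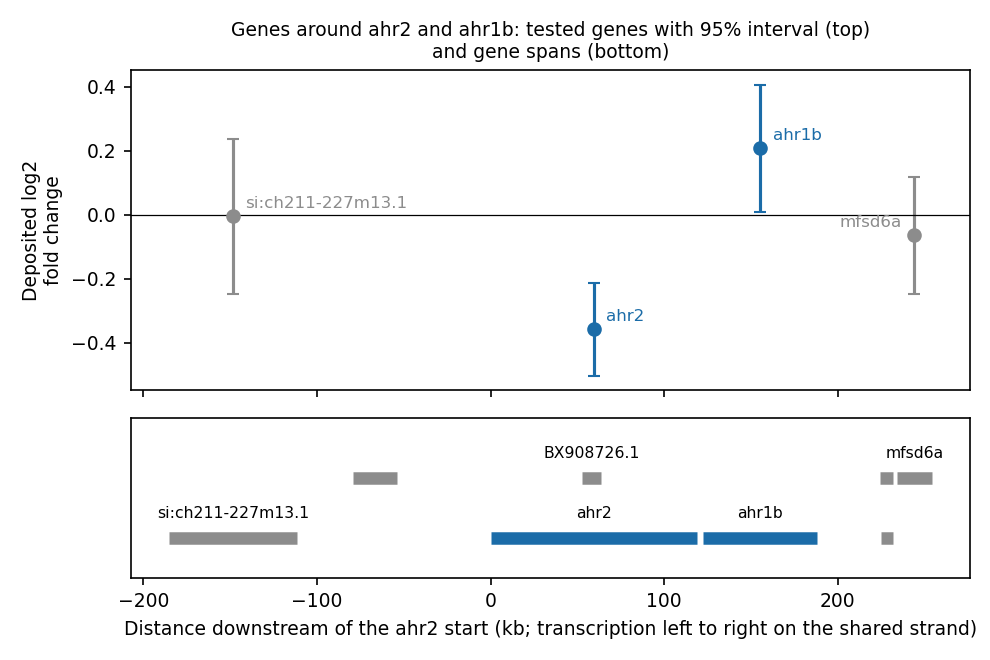
The top panel gives the deposited log2 fold change with its 95% interval for tested genes around the receptor pair, and the bottom panel their spans, by distance from the ahr2 start in kb along the direction of transcription. Blue marks ahr2 (-0.36) and ahr1b (0.21), grey other gene models, some unlabelled with no adjusted p; the flanking tested genes lie near 0.

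The dimer partners were both positive and not called. ARNT pairs with AhR and with the hypoxia-inducible factors, and ARNT2 is its paralog, expressed in mammals mainly in the nervous system. In the authors' deposited table arnt stood at 0.05 (SE 0.0980; DESeq2 adjusted p = 0.860) at a base mean of 665. Its paralog arnt2 stood at 0.13 (SE 0.0956; DESeq2 adjusted p = 0.615) at a base mean of 1739 in the authors' deposited table. Their intervals, from -0.14 to 0.25 for arnt and from -0.06 to 0.31 for arnt2, left out the values of ahr2 and tiparp. The span of arnt, on chromosome 16 from 4564432 to 4610281, overlaps that of cyp4t8 on the same strand (-0.15, SE 0.0961, not called, chosen after its value was seen) in the authors' deposited table. Whether their exons overlap is not known here, and how reads in the shared stretch were counted was not tested. For arnt2, on chromosome 7 from 10700813 to 10878252, no gene model of the authors' deposited table overlaps.

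The repressor genes were all negative, and tiparp was called. TIPARP is an enzyme that adds ADP-ribose to proteins and, in mouse and human cells, limits AhR activity. In the authors' deposited table tiparp had a base mean of 1063, ranked 129 by p-value, and lies on chromosome 18 from 34599315 to 34642086. Its interval ran from -0.50 to -0.20. Its nearest tested neighbours were ssr3 at -0.05 (SE 0.0716), 49377 bp away on the other strand, and si:ch211-195m9.3 at 0.13 (SE 0.105), 485883 bp away. Neither was called in the authors' deposited table. The repressor ahrra, which competes with AhR for ARNT and DNA, stood at -0.29 (SE 0.112; DESeq2 adjusted p = 0.160) at a base mean of 1433 in the authors' deposited table, with an interval from -0.51 to -0.07. It lies on chromosome 24 from 42094288 to 42102252 and overlaps the end of pigm on the other strand, which stood at -0.10 (not called, chosen after its value was seen) in the authors' deposited table. Its paralog ahrrb, on chromosome 2 from 50133506 to 50198562, stood at -0.13 (SE 0.124) at a base mean of 46.7 in the authors' deposited table, with an unadjusted p of 0.295 from the DESeq2 Wald test and no adjusted p. The interval of ahrrb, from -0.37 to 0.11, held both signs and overlapped that of ahrra. The nearest tested genes that do not overlap them were all negative and not called in the authors' deposited table. These were ssr1 (-0.13) and snx16 (-0.12) beside ahrra, and exoc3 (-0.16) and cul1a (-0.03) beside ahrrb. All were chosen after their values were seen. Of all tested genes 50.6% were negative, and the neighbours named for other genes of the set held both signs.

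The foxq1 genes were negative and not called. They encode forkhead transcription factors, and foxq1b is a known dioxin-induced gene of the zebrafish jaw. In the authors' deposited table foxq1b stood at -0.32 (SE 0.117; DESeq2 adjusted p = 0.125) at a base mean of 298, with an interval from -0.55 to -0.09. Its paralog foxq1a stood at -0.19 (SE 0.114; DESeq2 adjusted p = 0.495) at a base mean of 875 in the authors' deposited table, with an interval from -0.41 to 0.03. Each lies beside a foxf2 gene on its own strand. On chromosome 2, foxq1a (720779 to 722170) is 4352 bp from foxf2a, which stood at 0.01 (SE 0.0776), and on chromosome 20, foxq1b (26683933 to 26685395) is 4640 bp from foxf2b, at 0.01 (SE 0.106), per the authors' deposited table. Neither foxf2 gene was called, and both were chosen after their values were seen.

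Among the negative genes, the error as well as the fold separated called from uncalled. The largest unadjusted p among called genes was 0.00134 in the authors' deposited table, which corresponds to a fold change of 3.21 times its SE. At their own SEs, ahr2 would have been called from a size of 0.24 upward and tiparp from 0.25, but ahrra from 0.36 and foxq1b from 0.37. The fold of foxq1b (-0.32) was thus close to those of ahr2 (-0.36) and tiparp (-0.35) but had a larger error, since 12.6% of tested genes had an SE as large as that of foxq1b and 76.7% one as large as that of ahr2. For ahr1a and ahrrb, which had no adjusted p, no size of change could have been called at their base means. The ratio of the tested genes would ask for a size of 0.40 at their SEs, on the deposited, apparently shrunken scale. That size is not their limit of detection, since the ratio was taken from other genes. With the inferred shrinkage undone, foxq1b stood at -0.48, ahrra at -0.41, ahr2 at -0.40 and tiparp at -0.39, so the order of these folds depends on the shrinkage. It moved ahr1a from -0.14 to -0.27 and ahrrb from -0.13 to -0.25.

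**Figure D3:**
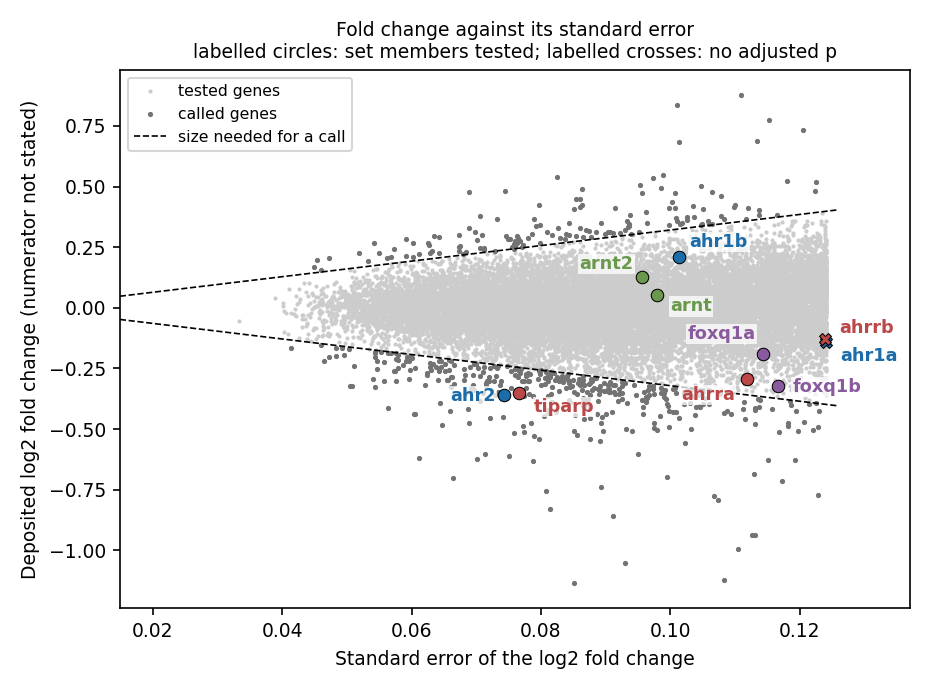
Deposited log2 fold change (vertical axis) against its SE (horizontal axis) for 19257 tested genes in grey, called genes in dark grey, with the 10 genes labelled and coloured by role. Dashed lines mark a fold of 3.21 SE; ahr2 and tiparp lie beyond the lower line, and foxq1b and ahrra, at larger SEs, lie inside it.

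Genes known to be induced by AhR, outside the set, carried the same sign as ahr2 and tiparp where they were called. Of 12 listed, 11 were tested, and 5 were called negative and 0 positive, with a median of -0.12, in the authors' deposited table. That is 45.5% of the list's tested genes, beside 2.68% of all tested genes called. The classical target cyp1a, a monooxygenase that oxidises planar aromatic compounds, stood at -0.78 (SE 0.107; DESeq2 adjusted p = 3.04e-10) according to the authors' deposited table, a difference of 1.71-fold. Also called in the authors' deposited table were its relatives cyp1c1 (-0.49) and cyp1c2 (-0.44), the sulfotransferase gene sult6b1 (-0.50) and cyp1b1 (-0.32, chosen after its value was seen). The folds of ahr2 and tiparp were smaller in size than those of cyp1a, cyp1c1, cyp1c2 and sult6b1 and close to that of cyp1b1. The detoxification genes nqo1 (-0.04) and gstp1 (-0.07) were not called in the authors' deposited table, nor was pfkfb3, a glycolysis regulator, at 0.29 (SE 0.121; DESeq2 adjusted p = 0.229), and these 3 were chosen after their values were seen. The list was drawn up with earlier results of these data known, so its direction is not independent evidence.

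Of the 7 genes of the chaperone complex that holds AhR in the cytosol, 1 was called negative and 0 positive, with a median of -0.08, in the authors' deposited table. This 1 call is 14.3% of the list, beside 2.68% of all tested genes. The called gene was hsp90aa1.2, at -0.43 (SE 0.1004; DESeq2 adjusted p = 0.00209). Its adjacent copy hsp90aa1.1 stood at -0.02 (SE 0.119), and hsp90ab1, the constitutive HSP90 gene, at -0.08 (SE 0.0772), neither called in the authors' deposited table and both chosen after their values were seen. The adjacent genes hsp90aa1.2 and hsp90aa1.1 may share reads if their sequences are alike. Neither their likeness nor the split of reads between them was tested, so that split is uncertain. The AhR-interacting co-chaperone gene aip stood at 0.03 (SE 0.0528), was not called and was chosen after its value was seen, in the authors' deposited table.

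Other bHLH-PAS genes encode hypoxia, clock and neural factors of the same protein family, and the 2 that were called are clock genes with the opposite sign to ahr2. Of 20 listed, 17 were found and 15 tested, with 0 called negative, 2 positive and a median of 0.05 in the authors' deposited table. The 2 calls are 13.3% of those tested, beside 2.68% of all tested genes. The called genes were arntl1b (0.48, SE 0.0744; DESeq2 adjusted p = 4.95e-08) and arntl1a (0.34, SE 0.0792; DESeq2 adjusted p = 0.00241), which encode partners of CLOCK related to ARNT, in the authors' deposited table. The 16 coregulator genes of AhR and ARNT, such as coactivators and corepressors of nuclear factors, had 0 calls by the DESeq2 test and 0 at an unadjusted p under 0.05, with folds from -0.04 to 0.20 and a median of 0.05 in the authors' deposited table. In the PARP family, to which tiparp belongs, 13 other genes were tested, and the DESeq2 test called 0, with 1 at an unadjusted p under 0.05. Their folds lay between -0.03 and 0.13 in the authors' deposited table, all above that of tiparp. Over all tested genes 2.68% were called, so 0 calls among 16 coregulator or 13 PARP genes is near that share. An unadjusted p under 0.05 was seen for 13.0% of all tested genes. Among 43 other tested forkhead genes, the 1 called was foxp4 at 0.17 (SE 0.0450; DESeq2 adjusted p = 0.0111), and the folds ranged from -0.24 to 0.27 with a median of 0.0063 in the authors' deposited table. The share called among these forkhead genes, 2.33%, is near the 2.68% of all tested genes.

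Among genes that break down tryptophan, a source of natural AhR ligands such as kynurenine, or turn it into serotonin, 2 of 13 tested were called negative and 0 positive in the authors' deposited table. Calls thus made up 15.4% of the tested genes of this list, beside 2.68% of all tested genes. Of the 15 listed, 14 were found. The median of the 13 was -0.13 and 11 were negative, or 84.6%, beside 50.6% of all tested genes. The called genes were tdo2a (-0.24, SE 0.0691; DESeq2 adjusted p = 0.0217), whose enzyme opens the tryptophan ring, and haao (-0.21, SE 0.0576; DESeq2 adjusted p = 0.0159), which acts later in the same pathway, in the authors' deposited table. Both calls were lost when all folds were shifted by 0.048 to make the summed values of the groups equal. Of all called genes, 71.7% were negative as deposited and 38.0% after that shift. The shift also moved the median of all tested genes from -0.0016 to 0.046. The summed values were not observed but rebuilt from the base means and the deposited, apparently shrunken folds. Abundant genes weigh most in them, so the shift is not a normalisation of counts.

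**Figure D4:**
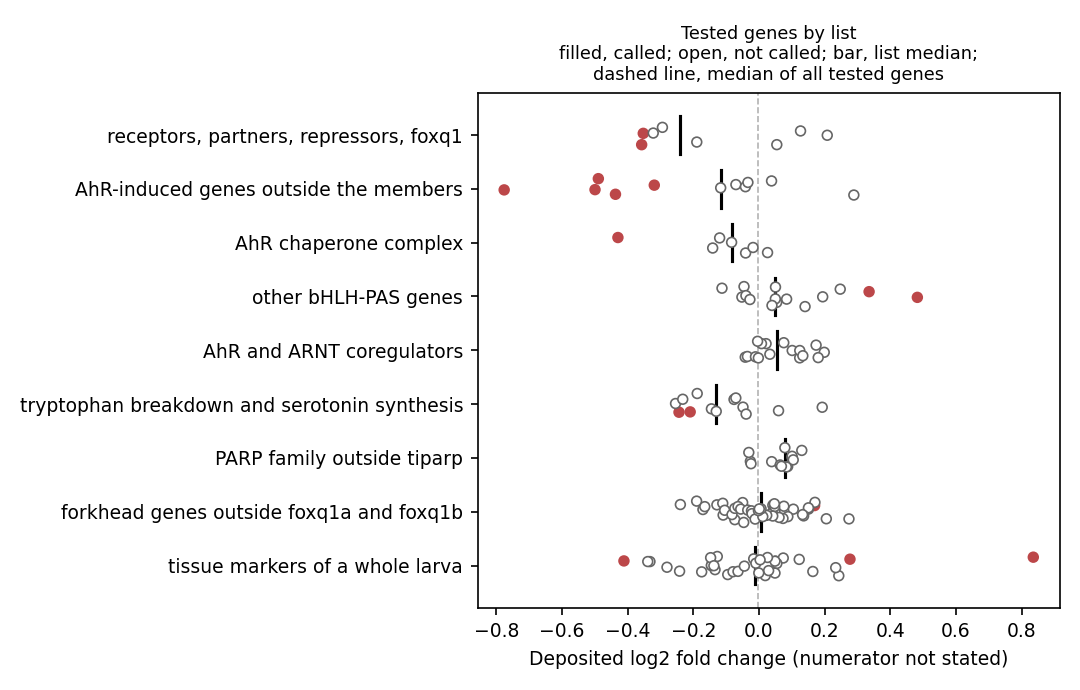
Deposited log2 fold change (horizontal axis) of the tested genes in the set and in 8 lists of related genes; filled points were called, open points were not, bars are list medians and the dashed line is the median of all tested genes. The AhR-induced list reaches -0.78, and the median of the set is -0.24.

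Markers of the tissues of a whole larva were all present, with 34 of 34 tested and base means from 52.8 to 514369 in the authors' deposited table. Of these, 1 was called negative and 2 positive, or 8.82% beside 2.68% of all tested genes. At an unadjusted DESeq2 p under 0.05, 11 of the 34 passed, a larger share than the 13.0% of all tested genes. Their folds ran from -0.41 to 0.84, with 19 negative, 15 positive and a median of -0.01, which was 0.03 after the shift to equal sums. The called markers were apoa4a of the intestine (-0.41, SE 0.113), cdh5 of the endothelium (0.28, SE 0.0759) and the green cone opsin opn1mw2 (0.84, SE 0.101) in the authors' deposited table. In whole animals, fewer cells of a type and less RNA per cell cannot be told apart. With the Wald statistics divided by their robust spread, apoa4a, cdh5, cyp1b1, hsp90aa1.2, arntl1a, tdo2a, haao and foxp4 lost their calls. The part of these tissues in the folds of ahr2 and tiparp was not tested.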

How the data were processed

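Stranded mRNA libraries of pooled zebrafish were made per the labels' protocols, and the submitters' processing notes list DESeq2, featureCounts, STAR, cutadapt and FastQC, without versions. The authors deposited 1 table for DMSO and TCPMOH. Its base mean is a signal, the mean of normalised counts, per the file headers. The deposited fold change and SE are on the log2 scale. The deposited Wald statistic is a score equal to the fold change over its SE. The deposited p-value is two-sided, and 32336 genes have one. Benjamini-Hochberg adjustment recomputed over the 19257 genes with an adjusted p matched the deposited adjusted values within 5.17e-06. Gene models are of a GTF with Ensembl identifiers per the file headers, and the identifiers of 8 of the 10 genes carry the same symbol in the gene name table. The table has 0 columns for single libraries, so count models, library checks and list tests were not run. A prior standard deviation of 0.248 was inferred from the largest SE of 0.124, the maximum that a normal prior allows. Undoing it assumes that each gene holds more information than the prior.

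The genes and lists were chosen with earlier results of these data known. Named genes are all 10 of the set, at most 4 called genes per list by smallest p, and the nearest tested genes beside called ones; genes named outside this rule are marked in the text as chosen after their values were seen. The 7 alternatives changed the adjustment, threshold, centring, spread or shrinkage, and their code was checked on simulated data. Those data lacked the spread of 1.30 found here, and their shrinkage was built with the formula later undone. The check therefore cannot show which alternative suits the deposited values. The software was scipy 1.17.1, numpy 2.4.6 and pandas 2.3.3 under Python 3.11.15, with matplotlib 3.10.9 for plots.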

Additional observations from a re-analysis of the deposited data

How the results depend on the processing

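No sign of the 10 genes turned under the 7 alternatives, but none of them could turn one. They kept the folds, scaled them by a positive factor, or shifted them by at most 0.048. Every shift raised the folds, and no negative fold of the set was that small in size. The gene ahr2 kept its call in each (adjusted p from the DESeq2 statistics, 0.000277 to 0.0397). The threshold of 0.1 and the undone shrinkage reuse the deposited adjusted p and could not end that call. With the Wald statistics divided by their robust spread of 1.30, tiparp lost its call (adjusted p = 0.0603), so that 1 gene of the set was called, and 121 genes were called in all against 516; Benjamini-Yekutieli adjustment called 216. Without the filter on low means ahr1a (adjusted p = 0.889) and ahrrb (0.916) were not called. Under the robust spread, calls fell to 0 negative in the chaperone list, to 1 positive among other bHLH-PAS genes, to 0 positive among forkhead genes, to 0 negative among tryptophan genes, and to 0 negative and 1 positive among tissue markers. Under Benjamini-Yekutieli adjustment they fell to 0 positive among forkhead genes, 0 negative among tryptophan genes, and 0 negative and 1 positive among tissue markers. The shift to equal sums left 0 negative among tryptophan genes and 2 positive among forkhead genes, and a threshold of 0.1 gave 3 negative tissue markers. The other 114 values of these counts, for the set and the lists, stayed within 1.5 times, and many of them are counts that stayed at 0. Among the 114, the negative calls of AhR-induced genes fell from 5 to 4 under the robust spread, Benjamini-Yekutieli adjustment and the shift to equal sums. The undone shrinkage could move no count, since it reuses the deposited adjusted p. Counting every entry of a symbol in the set could not either, since each symbol had 1 entry. The numerator of the fold change is not stated, which turns all signs together. No paired analysis was possible because the table holds no values per library; for the same reason the replicates could not be left out in turn and no other normalisation was run.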
